A study of Mus musculus with 6 samples.

Results

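Nuclear-encoded oxidative phosphorylation genes were followed in wild-type and Pml-knockout mouse embryonic stem cells. The members were taken by name from the deposited gene table: symbols that begin with Nduf, Uqcr, Cox4, Cox5, Cox6, Cox7, Cox8 or Atp5, and the genes Sdha, Sdhb, Sdhc, Sdhd and Cyc1. This gave 93 of 24421 genes. They were sorted into 36 subunits of complex I, 8 assembly factors of complex I, 4 genes of complex II, 9 of complex III, 20 of complex IV and 16 of complex V. Ndufa4 and its relative Ndufa4l2 were placed in complex IV, where the Ndufa4 protein is found, and Atp5sl, an alias of the assembly factor Dmac2, with complex I assembly.

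Polyadenylated RNA was sequenced from 3 libraries of wild-type E14 cells and 3 libraries of Pml-/- E14 cells. E14 is an embryonic stem cell line of the mouse. All 6 libraries came from cells grown in serum-containing medium with leukemia inhibitory factor, CHIR99021, an inhibitor of GSK3, and PD0325901, an inhibitor of MEK. KO34 heads all 3 knockout column names, and no label states whether replicates were separate clones or cultures. The p-values below therefore reflect variation among these 6 libraries alone, and that variation may be technical.

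Oxidative phosphorylation takes place in the inner mitochondrial membrane. Complexes I and II pass electrons from NADH and succinate to coenzyme Q, complex III hands them to cytochrome c, and complex IV gives them to oxygen. Complexes I, III and IV pump protons, and complex V, the ATP synthase, uses the proton gradient to make ATP. Most subunits are encoded in the nucleus, and naive embryonic stem cells are known to respire as well as to use glycolysis.

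The libraries held between 5845653 and 11046725 reads, and the members together took 85693 to 160151 of them. The unit of level is CPM, a gene's reads scaled to the same library size in each library. Pml, the targeted gene, measured 186, 194 and 193 CPM in wild type and 77.3, 75.4 and 76.3 CPM in the knockout. Stem cell markers were abundant in every library. The 8 genes summed to 7064 to 7260 CPM in wild type and 7252 to 7421 CPM in the knockout. Of the 8, 1 was called, Tdgf1, which rose from 343 to 439 CPM (limma adjusted p = 1.34e-05). The 10 fibroblast markers summed to 24.6 to 28.5 CPM in wild type and 23.6 to 31.5 CPM in the knockout, with Twist2, Postn and Dcn at 0. Within that list Thy1 fell from 8.43 to 3.86 CPM (limma adjusted p = 1.20e-05) and Pdgfrb rose from 15.03 to 20.2 CPM (limma adjusted p = 0.0133). The 4 neural precursor markers summed to 134 to 146 CPM in wild type and 87.9 to 97.0 CPM in the knockout, and the 6 primitive endoderm markers to 2.45 to 3.78 CPM and 4.35 to 4.601 CPM. Neither pair of ranges overlapped. Of the neural genes, the 3 that were tested, Nes, Sox1 and Tubb3, were lower by limma, and Pax6 was too low to test. Of the primitive endoderm genes only Dab2 was tested. It stood at 1.42 CPM in wild type and 2.43 CPM in the knockout and did not pass (limma adjusted p = 0.0706). The part of neural precursor or primitive endoderm cells in the results below was not tested. In bulk RNA, fewer cells of a type and less RNA per cell cannot be told apart.

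The transcripts of the respiratory chain differed little between knockout and wild type. Of 87 members that passed the filter on low counts, 3 were higher, 3 were lower and 81 did not pass the test. Ndufv3 and Ndufb10 of complex I and Atp5j of complex V rose, and Atp5c1, Atp5e and Atp5g2 of complex V fell. The test was limma on log2(CPM + 1) with Benjamini-Hochberg adjustment over all 12435 tested genes and a threshold of 0.05. By the same rule 14.0% of all tested genes were called, 6.54% higher and 7.49% lower, against 6.90% of the tested members in either direction. The members' share lay below that background. The knockout means of the called members lay between 84.2% and 126% of wild type.

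**Figure D1:**
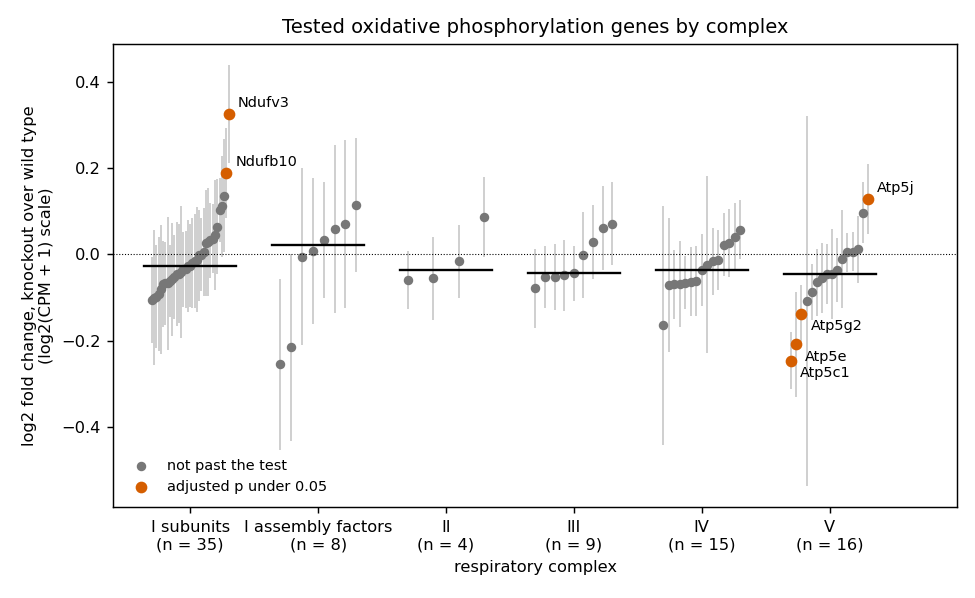
Log2 fold change, knockout over wild type, of each tested member (points) with its 95% interval (bars), by complex, with the median of each group as a black line. Orange points passed limma at an adjusted p under 0.05; the 6 orange points lie in complexes I and V, and the group medians lie between -0.05 and 0.02.

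The median log2 fold change was -0.03 over the tested complex I subunits, 0.02 over the assembly factors, -0.04 in complex II, -0.04 in complex III, -0.04 in complex IV and -0.05 in complex V. Over all tested members it was -0.03, with 57 of 87 below 0, and over all tested genes 0.00463, with 48.6% below 0. The tested members had a median wild-type level of 99.98 CPM, against 28.2 CPM over all tested genes. The 95% interval of the fold change lay within 1.25-fold either way for 81 of 87 tested members, against 58.8% of all tested genes. The members outside that range were Ndufv3, Atp5e, Atp5s, Ndufa4l2, Ndufaf2 and Ndufaf6. The groups did not overlap for 16 tested members, 9 lower and 7 higher, or 18.4%, against 30.2% of all tested genes.

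Summed over a complex, the transcript level hardly moved. Complex I measured 2938, 2979 and 2846 CPM in wild type and 2863, 3008 and 2900 CPM in the knockout. Complex V measured 6626, 6690 and 6583 CPM in wild type and 6483, 6642 and 6460 CPM in the knockout. The groups overlapped in both sums. Atp5b alone made up 36.5% of the wild-type sum of complex V, so that sum says little about its less abundant members. The knockout mean was 100.1% of the wild-type mean in complex I, 98.3% in complex II, 98.4% in complex III, 98.5% in complex IV and 98.4% in complex V. Over all 93 members the sum was 14524 ± 171 CPM in wild type and 14350 ± 269 CPM in the knockout (mean ± SD, n = 3), or 1.45% and 1.43% of the counted reads. These sums are given without a test.

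**Figure D2:**
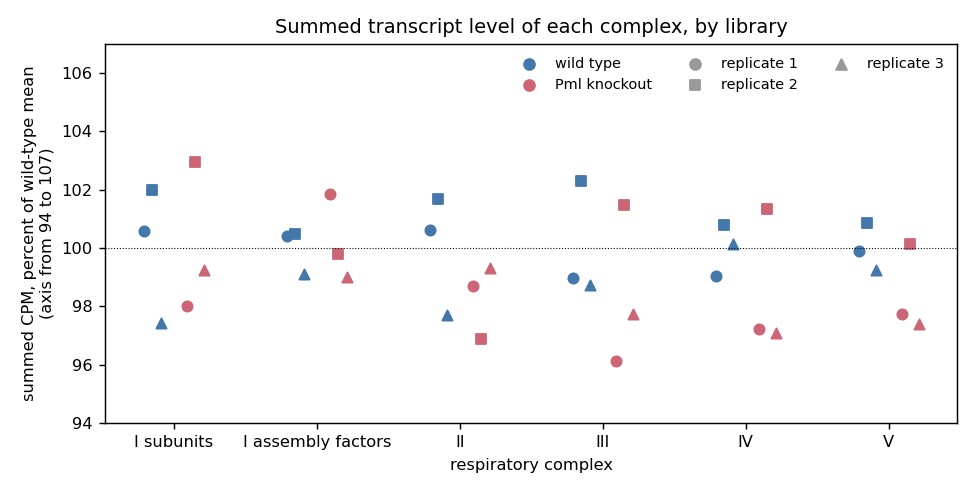
Summed CPM of the members of each complex in each library, as percent of the wild-type mean of that complex; colours mark the genotype and symbols the replicate number. The axis starts at 94; all values lie between 96 and 103, and the wild-type and knockout libraries overlap in complexes I to V and among the assembly factors.

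Replicate 2 stood apart from the other libraries in these genes. It was the highest of the 3 wild-type libraries for 44 of 87 tested members and the highest of the 3 knockout libraries for 54 of 87. Over all tested genes the same shares were 32.05% and 35.2%, against 50.6% and 62.1% of the tested members. Without wild-type replicate 2, 1 tested member was higher and 2 were lower. Without knockout replicate 2, 2 were higher and 6 were lower, and without wild-type replicate 1, 1 was higher and 2 were lower. Over all genes, 813 higher and 932 lower became 512 and 648 without wild-type replicate 2. They became 872 and 980 without knockout replicate 2, and 545 and 632 without wild-type replicate 1. Nothing particular to the members is drawn from these shifts.

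Complex I oxidizes NADH, and its matrix arm holds the flavin and the iron-sulfur clusters. Ndufv3, a small subunit of the NADH-binding module of that arm, had the largest log2 fold change of the 87 tested members. It measured 67.7, 64.8 and 59.2 CPM in wild type and 82.8, 82.5 and 75.5 CPM in the knockout. Every knockout library lay above every wild-type library. On the log2 scale the difference was 0.32 (95% interval 0.21 to 0.44, SE 0.0556), with a limma adjusted p of 0.000118, and the knockout mean was 126% of the wild-type mean. Ndufv3 is known to give a short and a long protein by splicing, and the table holds 1 value for the gene, so the forms could not be told apart. Its partners in the NADH-binding module, Ndufv1 with the flavin and Ndufv2 with an iron-sulfur cluster, had log2 fold changes of -0.03 and 0.03, and neither passed the test. Ndufv3 lies on chromosome 17 of mm10, from 31519842 to 31531325. Its neighbours Wdr4 and Pknox1 had log2 fold changes of -0.07 and -0.09, and neither passed the test.

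Ndufb10, a subunit of the membrane arm, measured 62.1, 62.7 and 65.8 CPM in wild type and 71.7, 72.2 and 73.5 CPM in the knockout. The 3 knockout libraries lay above the 3 wild-type libraries. The difference was 0.19 on the log2 scale, with an SE of 0.0511 and a limma adjusted p of 0.0122. Leaving out wild-type replicate 1, wild-type replicate 2 or knockout replicate 3 gave an adjusted p of 0.0649, 0.0577 or 0.0531, and DESeq2 gave 0.0951, while the log2 fold change lay between 0.17 and 0.21 in all 13 alternatives. Ndufb10 lies on chromosome 17 as well, from 24722067 to 24724388, and ends 140 bases from the ribosomal protein gene Rps2, whose log2 fold change was -0.01 and did not pass the test.

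The stretches around the start sites of these genes are shown because the calls are their mRNA levels; they come from RefSeq on GRCm38.p6, run from 250 bases before the start site to 30 after it, and have matches to 5 motifs in capitals. The motifs, read on both strands, were GCGCA, any base and GCGC for NRF1, CCGGAAG for GABPA and other ETS factors, AANATGGC for YY1, AAGGTCA for estrogen-related receptors and GGGCGG for SP1, and no motif contains another. The Ndufv3 stretch (chr17:31519865-31520144, plus strand) has 2 SP1 matches and no other. The RefSeq start site of Ndufv3 lies 273 bases inside the deposited locus, so the whole stretch falls within that locus. The Ndufb10 stretch (chr17:24724394-24724673, minus strand) has 1 YY1 match, 198 bases before the start site. A match describes letters and shows no binding.
Ndufv3: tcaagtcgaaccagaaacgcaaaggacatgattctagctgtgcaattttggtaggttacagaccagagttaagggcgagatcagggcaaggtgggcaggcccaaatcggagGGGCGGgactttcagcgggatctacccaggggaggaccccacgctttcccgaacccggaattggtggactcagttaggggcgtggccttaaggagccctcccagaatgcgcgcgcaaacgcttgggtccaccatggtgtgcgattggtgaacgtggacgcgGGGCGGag
Ndufb10: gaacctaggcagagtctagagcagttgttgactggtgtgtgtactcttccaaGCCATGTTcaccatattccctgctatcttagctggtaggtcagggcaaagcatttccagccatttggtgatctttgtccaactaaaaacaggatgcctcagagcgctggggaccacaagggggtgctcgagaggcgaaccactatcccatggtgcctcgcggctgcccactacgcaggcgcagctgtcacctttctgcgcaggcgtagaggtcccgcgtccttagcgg

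The other 33 tested complex I subunits did not pass the test. An unadjusted limma p under 0.05 was found for 5 of the 35 tested subunits and 13 of the 87 tested members. Over all tested genes it was found for 3407 of 12435. Ndufs1, the core subunit with the most iron-sulfur clusters, had a log2 fold change of 0.04, and Ndufs8, another iron-sulfur subunit, of 0.11. Among the accessory subunits Ndufa3 stood at 0.14 and Ndufb8 at -0.11. Per length of transcript the accessory subunits Ndufa7 and Ndufa6 were the highest in complex I, with 254 and 200 CPM per kb in wild type. Ndufa7 had a log2 fold change of -0.00 and Ndufa6 of 0.06. The tested complex I subunits spanned 17.4-fold in wild-type level per kb, down to 14.6 CPM per kb for Ndufb2. That span depends on the annotated length of Ndufb2, 2413 bases. In CPM, Ndufb2 with 35.2 lay above Ndufa1 with 32.2 and Ndufb3 with 31.7 in wild type. Ndufs5, an accessory subunit of the membrane arm, is listed at 0 in all 6 libraries, and nothing about its level is drawn from that.

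The 8 assembly factors of complex I help to build the enzyme and are not part of it. Of these, 0 passed limma and 0 passed edgeR, against 14.0% and 14.6% of all tested genes. Nothing is drawn from counts this small. Beside 3407 of 12435 tested genes, 1 of the 8 had an unadjusted limma p under 0.05. That gene was Ndufaf6, at 17.3, 18.3 and 16.5 CPM in wild type and 14.4, 13.5 and 15.3 CPM in the knockout, with a log2 fold change of -0.26 (limma adjusted p = 0.08). Ndufaf2 measured 14.4, 13.9 and 14.7 CPM in wild type and 11.2, 12 and 13.6 CPM in the knockout, with a log2 fold change of -0.22 (limma adjusted p = 0.184). In both genes the 3 knockout libraries lay below the 3 wild-type libraries. Ndufaf2 and Ndufaf1 were the highest of the 8 per length, with 23.3 and 18.5 CPM per kb in wild type, and Ndufaf1 had a log2 fold change of 0.01. The other 5 factors had log2 fold changes between -0.01 and 0.11.

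Complex II, succinate dehydrogenase, also works in the tricarboxylic acid cycle. Of its 4 genes 0 passed limma, 0 passed edgeR and 0 had an unadjusted limma p under 0.05. Over all tested genes the limma and edgeR shares were 14.0% and 14.6%, and 3407 of 12435 had such an unadjusted p. Nothing particular to complex II is drawn from 4 genes. Sdha, which carries the flavin, measured 272, 272 and 268 CPM in wild type and 263, 253 and 263 CPM in the knockout. Its groups did not overlap, with a log2 fold change of -0.06 and a 95% interval from -0.13 to 0.01. Sdhb, the iron-sulfur subunit, measured 95.05, 102 and 95.00 CPM in wild type and 102, 102 and 106 CPM in the knockout, with overlapping groups and a log2 fold change of 0.09. The membrane anchors Sdhc and Sdhd had log2 fold changes of -0.06 and -0.02. Per length Sdhd and Sdha were the highest of the complex, with 112 and 93.4 CPM per kb in wild type, and the 4 genes lay within 2.27-fold of each other.

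Complex III, the cytochrome bc1 complex, likewise had 0 of 9 genes past limma, 0 past edgeR and 0 with an unadjusted limma p under 0.05. The shares over all tested genes were 14.0% by limma and 14.6% by edgeR, and 3407 of 12435 by unadjusted p. Nothing particular to complex III is drawn from 9 genes. Uqcrfs1, the Rieske iron-sulfur protein, measured 125, 120 and 116 CPM in wild type and 110, 119 and 113 CPM in the knockout, and the groups overlapped. Its log2 fold change was -0.08, with a 95% interval from -0.17 to 0.01. Cyc1, which encodes cytochrome c1, stood at -0.05 on that scale, and the core proteins Uqcrc1 and Uqcrc2 at -0.04 and -0.05. The small subunit Uqcr10 had a log2 fold change of 0.07. Uqcrh, the hinge protein, and Uqcr10 had the highest levels per length, with 307 and 306 CPM per kb in wild type, which differed by less than their spread. Uqcrh had a log2 fold change of -0.05.

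Complex IV, cytochrome c oxidase, has several subunits with tissue-restricted isoforms. Of 15 tested genes 0 passed limma and 0 passed edgeR, against 14.0% and 14.6% of all tested genes. Nothing particular to complex IV is drawn from 15 genes. Beside 3407 of 12435 tested genes, 1 of the 15 had an unadjusted limma p under 0.05. That gene was Cox4i1, the general form of subunit 4, at 390, 399 and 388 CPM in wild type and 371, 383 and 371 CPM in the knockout. Its groups did not overlap, with a log2 fold change of -0.07 (limma adjusted p = 0.149). Cox4i1 and Cox5a, partners in an early step of assembly, had the highest levels per length of the complex, with 520 and 507 CPM per kb in wild type. Cox5a measured 334, 326 and 321 CPM in wild type and 333, 357 and 331 CPM in the knockout, with a log2 fold change of 0.06 (limma adjusted p = 0.277).

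In the families of subunits 4, 6a, 7b and 8 the general isoform held over 99% of the level per kb in every library. Cox4i2, the form of lung and other oxygen-sensing cells, held 18, 18 and 9 reads in wild type and 7, 6 and 6 in the knockout, which is 0.378% of the subunit 4 level per kb in wild type and 0.242% in the knockout. Its level ranged from 0.959 to 1.74 CPM in wild type and from 0.690 to 1.03 CPM in the knockout, and the groups overlapped. Cox6a2, the heart and skeletal muscle form, held 0 to 2 reads per library, and Cox8b, another muscle form, is listed at 0. Cox8c and Cox7b2, both known from testis, held 0 to 5 and 0 to 8 reads per library. Cox7b2 had 8, 4 and 3 reads in wild type and 1, 0 and 2 in the knockout, or 0 to 0.724 CPM, and the groups did not overlap. These 5 genes and Ndufs5 are the 6 members that did not pass the filter on low counts and were not tested.

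Cox6b2, the form of subunit 6b known from testis and sperm, was detected well above these. It measured 43.4, 34.0 and 36.1 CPM in wild type and 34.28, 36.6 and 36.5 CPM in the knockout, and the groups overlapped. It made up 16.3% ± 2.35 of the subunit 6b level per kb in wild type and 16.1% ± 0.132 in the knockout (mean ± SD, n = 3), with Cox6b1 as the rest. Sperm markers were at 0 in all 6 libraries for all 6 genes looked at, from Prm1 to Odf1. Cox7a1, the heart and muscle form of subunit 7a, measured 15.5, 17.8 and 17.1 CPM in wild type and 15.2, 18.6 and 15.9 CPM in the knockout, and the 8 heart and muscle markers summed to 9.05 to 10.4 CPM in wild type and 9.24 to 10.6 CPM in the knockout. It made up 12.1% and 12.04% of the family level per kb, beside Cox7a2 with 40.9% and 39.4% and Cox7a2l, a factor that joins complexes III and IV, with 47.1% and 48.5%. Ndufa4l2, a relative of Ndufa4 that is known to respond to hypoxia, measured 17.9, 12.6 and 13.2 CPM in wild type and 16.9, 11.3 and 10.8 CPM in the knockout. Its share beside Ndufa4 was 4.05% and 3.72% per kb. Within the 15 tested genes, Cox6b1, Cox6b2, Cox6a1, Cox7a1, Cox7a2, Cox7a2l, Cox7b, Cox8a, Ndufa4 and Ndufa4l2 had log2 fold changes between -0.16 and 0.03, and none of these 10 passed limma or edgeR.

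**Figure D3:**
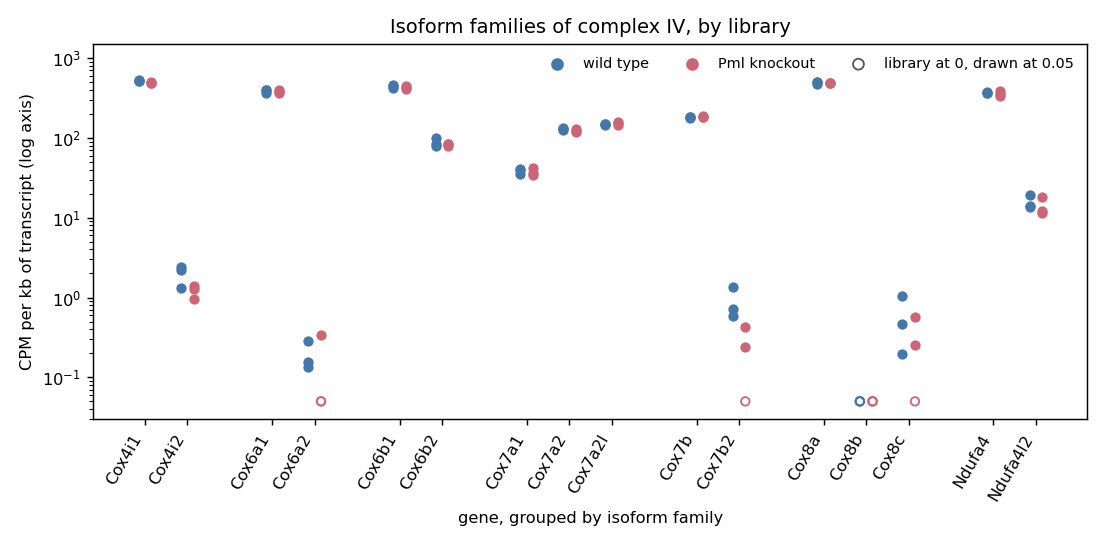
Level in CPM per kb of transcript, on a log axis, of the isoform families of complex IV in each library; filled points are libraries with reads and open points are libraries at 0, drawn at 0.05. Cox6b2 and Cox7a1 lie below their general partners by less than a full decade, and Cox4i2, Cox6a2, Cox7b2, Cox8b and Cox8c lie far below theirs.

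In complex V 4 of 16 members were called, Atp5c1, Atp5e and Atp5g2 lower and Atp5j higher, beside 14.0% of all tested genes. Nothing particular to the complex is drawn from a count this small. An unadjusted limma p under 0.05 was found for 6 of the 16, against 3407 of 12435 tested genes. The enzyme has a catalytic head, a rotor made of the central stalk and the ring of c subunits, and a peripheral stalk that holds the head still. The genes of the head were level. Atp5b, the catalytic beta subunit, measured 2443, 2446 and 2374 CPM in wild type and 2419, 2460 and 2407 CPM in the knockout, and Atp5a1, the alpha subunit, had a mean of 1485 ± 6.27 and 1491 ± 10.3 CPM (SD, n = 3). Their log2 fold changes were 0.00 and 0.01, each with a 95% interval from -0.04 to 0.05. They were also the highest members of complex V per length, with 1264 and 577 CPM per kb in wild type.

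The central stalk holds the gamma, delta and epsilon subunits, and Atp5c1 and Atp5e fell; this grouping was chosen after the values were seen, and 7.49% of all tested genes fell. Atp5c1, the gamma subunit that turns inside the head, measured 379, 405 and 394 CPM in wild type and 327, 341 and 325 CPM in the knockout. All 3 knockout libraries lay below the lowest wild-type library. The difference on the log2 scale was -0.25 (95% interval -0.31 to -0.18, SE 0.0322), with a limma adjusted p of 1.94e-06, and the knockout mean was 84.2% of the wild-type mean. Atp5e, the epsilon subunit, measured 63.5, 64.4 and 58.9 CPM in wild type and 50.9, 58.3 and 52.2 CPM in the knockout, again with no overlap. On the log2 scale it fell by 0.21, with an SE of 0.0596 and a limma adjusted p of 0.0166, and the adjusted p lay between 0.0754 and 0.0948 without wild-type replicate 1, wild-type replicate 2, knockout replicate 1 or knockout replicate 3. DESeq2 gave an adjusted p of 0.0824, and the log2 fold change of Atp5e lay between -0.27 and -0.17 in all 13 alternatives. Atp5d, the delta subunit, measured 181, 191 and 185 CPM in wild type and 171, 184 and 178 CPM in the knockout, with overlapping groups and a log2 fold change of -0.06 (limma adjusted p = 0.281). Its deposited locus is shared with many genes of chromosome 10, Ndufs7 among them.

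Atp5c1 lies on chromosome 2 (mm10, 10056031 to 10080510, minus strand), and 71 bases separate its locus from that of Kin, a gene of DNA repair that runs the other way. Kin stood at 19.1 ± 0.323 CPM in wild type and 19.0 ± 1.57 CPM in the knockout (SD, n = 3), with a log2 fold change of -0.01 that did not pass the test. Taf3, on the other side, had a log2 fold change of -0.02 and did not pass either. A pseudogene named for Atp5c1, Atp5c1-ps, is annotated on chromosome 13. How reads that map to both places were handled is not given. The stretch between both loci is shown because 1 of the 2 genes it separates was called (chr2:10080481-10080611, minus strand of GRCm38.p6). Capitals mark the 71 bases between the loci, with 30 bases of each gene on either side.
Atp5c1-Kin: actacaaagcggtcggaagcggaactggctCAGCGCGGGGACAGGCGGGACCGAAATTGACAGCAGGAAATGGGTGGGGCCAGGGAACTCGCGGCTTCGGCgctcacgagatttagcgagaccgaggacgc

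The c subunit is encoded by 3 genes, Atp5g1, Atp5g2 and Atp5g3, whose mature proteins are identical and whose import sequences differ. Atp5g2 measured 282, 283 and 283 CPM in wild type and 252, 267 and 252 CPM in the knockout, with no overlap. On the log2 scale it fell by 0.14, with an SE of 0.0334 and a limma adjusted p of 0.00475. Atp5g1 measured 228, 232 and 240 CPM in wild type and 244, 255 and 251 CPM in the knockout, with no overlap in the opposite direction and a log2 fold change of 0.10 (limma adjusted p = 0.0582). Without knockout replicate 1, Atp5g1 had an adjusted p of 0.0477. Atp5g3 measured 339, 320 and 320 CPM in wild type and 332, 325 and 299 CPM in the knockout, with overlapping groups. Summed, the 3 genes gave 843 ± 6.69 CPM in wild type and 825 ± 22.1 CPM in the knockout. Per kb, Atp5g2 made up 47.1% ± 0.639 of the family in wild type and 45.0% ± 1.11 in the knockout, and Atp5g1 8.53% ± 0.298 and 9.58% ± 0.342 (SD, n = 3). These shares rest on annotated lengths of 2675.5 bases for Atp5g1, 586 for Atp5g2 and 718.5 for Atp5g3. The length of the expressed transcripts was not measured, so the low share of Atp5g1 may come from the length used. The Atp5g2 stretch (chr15:102671018-102671297, minus strand of GRCm38.p6) is shown because it has an NRF1 match, 42 bases before the start site, and 1 SP1 match, both in capitals.
Atp5g2: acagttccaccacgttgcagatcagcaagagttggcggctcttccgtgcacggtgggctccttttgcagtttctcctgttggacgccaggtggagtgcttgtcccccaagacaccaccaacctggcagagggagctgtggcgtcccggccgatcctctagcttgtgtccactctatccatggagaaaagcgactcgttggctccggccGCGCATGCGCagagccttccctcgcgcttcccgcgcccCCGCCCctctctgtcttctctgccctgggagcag

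In the peripheral stalk, Atp5j, which encodes coupling factor 6, rose. It measured 140, 145 and 147 CPM in wild type and 156, 163 and 154 CPM in the knockout, with no overlap. It rose by 0.13 on the log2 scale, with an SE of 0.0396 and a limma adjusted p of 0.0275, and that p was 0.15, 0.065 and 0.0933 without wild-type replicate 1, wild-type replicate 2 and knockout replicate 2. DESeq2 gave an adjusted p of 0.149, and the log2 fold change of Atp5j lay between 0.10 and 0.14 in all 13 alternatives. Atp5j shares its deposited locus on chromosome 16 (84827871 to 84863778) with Gabpa, an ETS factor gene on the opposite strand, and strandedness is not given in the sources used here, so reads where both overlap cannot be told apart. Gabpa had a log2 fold change of 0.10 that did not pass the test (limma adjusted p = 0.0885). Jam2, an adhesion gene, lies 1496 bases from the locus shared by Atp5j and Gabpa, at the end where Atp5j lies. Jam2 rose from 412 ± 2.99 to 474 ± 1.01 CPM (SD, n = 3), with a log2 fold change of 0.20 and a limma adjusted p of 6.16e-06. A link between this rise and that of Atp5j was not tested.

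Atp5f1, the b subunit of the peripheral stalk, measured 347, 362 and 357 CPM in wild type and 326, 342 and 336 CPM in the knockout. The groups did not overlap, with a log2 fold change of -0.09 (limma adjusted p = 0.0642). By edgeR's quasi-likelihood test on the reads recovered from the CPM, its adjusted p was 0.0433. That test called 7 of 87 members, the 6 named above and Atp5f1, against 14.6% of all tested genes. The annotation places Wdr77 over Atp5f1 on the opposite strand, and Wdr77 had a log2 fold change of -0.02 that did not pass. Atp5h, subunit d, and Atp5o, which ties the stalk to the head, had log2 fold changes of -0.05 and -0.05. The membrane subunits Atp5j2, Atp5k and Atp5l had -0.05, -0.01 and 0.01. Atp5s, which encodes coupling factor B, was the lowest tested member, with 2.24 to 6.50 CPM over the 6 libraries and a 95% interval of the log2 fold change from -0.54 to 0.32, the widest interval of the tested members.

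**Figure D4:**
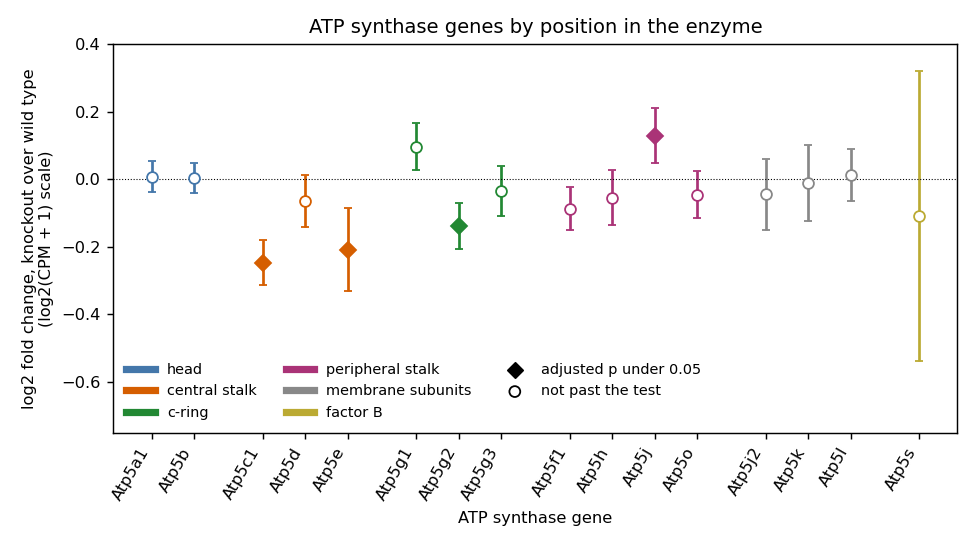
Log2 fold change, knockout over wild type, of the 16 ATP synthase genes with 95% intervals, ordered by position in the enzyme; filled diamonds passed limma at an adjusted p under 0.05. The head genes lie at 0, Atp5c1 and Atp5e of the central stalk and Atp5g2 of the c-ring lie below 0, and Atp5j of the peripheral stalk lies above 0.

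**Figure D5:**
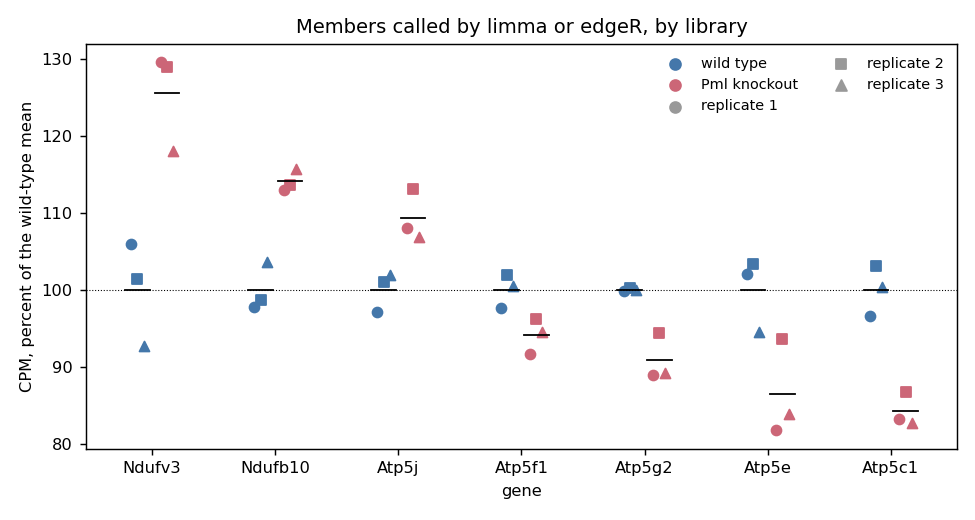
CPM of the 7 members called by limma or edgeR in each library, as percent of the wild-type mean of the gene, with group means as black lines; colours mark the genotype and symbols the replicate number. In each gene the 3 knockout libraries lie on 1 side of the 3 wild-type libraries; the means run from 126% for Ndufv3 to 84.2% for Atp5c1.

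In the authors' deposited table, 6 of the 87 tested members had an FDR under 0.05, against 12.3% of all genes tested here. In the authors' deposited table these were Atp5c1, Atp5g2, Atp5e, Atp5f1, Ndufb10 and Ndufv3, with log2 fold changes of -0.26, -0.15, -0.23, -0.10, 0.18 and 0.31. Atp5j had a deposited FDR of 0.151 in the authors' deposited table.

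Motif matches were counted around the members' start sites and are given as a description, with no test. A RefSeq promoter window was found for 76 of the 93 members, from 250 bases before to 50 bases after the start site. The NRF1 motif was present in 23.7% of these, against 4.63% of 32544 distinct promoter windows in the whole RefSeq set. The ETS motif was present in 21.1% against 8.91%, the YY1 motif in 22.4% against 6.08%, the motif of estrogen-related receptors in 10.5% against 4.71% and the SP1 motif in 44.7% against 35.9%. NRF1, GABPA, YY1 and estrogen-related receptors are known regulators of nuclear genes for mitochondrial proteins. The median log2 fold change was -0.04 over tested members with an NRF1 match and -0.02 over those without one. It was -0.01 with and -0.03 without an ETS match, -0.00 and -0.04 for YY1, -0.02 and -0.03 for estrogen-related receptors, and -0.02 and -0.03 for SP1. Of the tested members with a match, 1 of 17 was called for NRF1, 1 of 16 for ETS and 1 of 17 for YY1. For estrogen-related receptors it was 1 of 7, and for SP1 4 of 33. These stand beside 6.90% of all tested members and 14.0% of all tested genes, and nothing is drawn from counts this small. By position, the tested members on chromosome 8, Cox4i1, Ndufa13 and Ndufb7, had a median log2 fold change of -0.06, as had the 649 genes tested on that chromosome.

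Genes that serve the chain were counted in 10 lists, with 210 tested genes, of which 7 were higher and 20 lower, or 12.9%, close to the 14.0% of all tested genes. The counts of the single lists below are small, and nothing particular to a list is drawn from them. Over all tested genes 6.54% were higher and 7.49% lower. Among assembly factors outside the name rule, 1 of 46 was higher and 3 were lower, with a list median of -0.02. Sco1 and Cox11, which deliver copper to complex IV, fell from 38.6 ± 2.00 to 30.98 ± 2.41 CPM and from 28.0 ± 2.72 to 22.8 ± 1.38 CPM (SD, n = 3). Cmc1, another complex IV factor, fell by 0.33 on the log2 scale, and Ttc19, a factor of complex III, rose by 0.31. Of 21 electron carriers and coenzyme Q genes 2 fell (median -0.05). These were Etfa, which feeds electrons from fatty acid oxidation, from 90.1 ± 1.22 to 78.5 ± 0.486 CPM, and Coq9, by 0.23 on the log2 scale.

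Of 16 genes of the tricarboxylic acid cycle and its replenishment 1 rose and 4 fell (median -0.00). Pcx, pyruvate carboxylase, fell from 53.4 ± 1.71 to 43.8 ± 2.42 CPM (-0.28 on the log2 scale, limma adjusted p = 0.00179). Fumarase Fh1 and the succinyl-CoA ligase genes Suclg2 and Suclg1 dropped by 0.17, 0.14 and 0.13 in log2 units, and malic enzyme Me2 rose by 0.15. Of 14 genes of pyruvate entry 1 rose and 1 fell (median 0.02). Mpc1, a subunit of the mitochondrial pyruvate carrier, had the largest change in the 10 lists, from 17.3 ± 0.877 to 10.6 ± 0.798 CPM (-0.66 on the log2 scale, limma adjusted p = 3.67e-05), and the pyruvate dehydrogenase kinase gene Pdk4 rose by 0.41. Of 14 carriers 4 fell (median -0.01). Slc25a4, an exchanger of ADP and ATP, fell from 341 ± 3.61 to 300.1 ± 6.24 CPM, the creatine kinase gene Ckmt1 from 75.6 ± 3.59 to 52.7 ± 2.29 CPM, and the citrate carrier Slc25a1 and the outer membrane channel Vdac1 by 0.13 and 0.09 on the log2 scale.

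Of 14 regulators of mitochondrial biogenesis 2 fell (median 0.01). Esrra, a nuclear receptor that activates respiratory genes, fell from 19.1 ± 0.194 to 14.4 ± 0.581 CPM (-0.39 on the log2 scale, limma adjusted p = 0.00441), and the zinc finger gene Zbtb7b fell by 0.32. Of 20 genes that maintain and transcribe mitochondrial DNA 2 rose (median -0.03), the polymerase genes Polrmt and Polg, by 0.18 and 0.13. Of 28 import genes 4 fell (median -0.02), Timm44, Mtx2, Chchd4 and Tomm20, by 0.22, 0.18, 0.18 and 0.09. On chromosome 8 lay 4 of the 20 lower genes, Slc25a4, Coq9, Timm44 and Tomm20, among 12 list genes tested there, and 13.9% of all genes tested on that chromosome were lower. With DESeq2 on the recovered reads 1 list gene was higher and 8 were lower, and leaving out 1 library gave 2 to 10 higher and 10 to 19 lower, with the fewest higher without wild-type replicate 3 and the fewest lower without knockout replicate 3.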

How the data were processed

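The authors deposited CPM for 6 libraries with edgeR log2 fold changes, p-values and FDR, per the file headers. The submitters' processing notes and design text name cutadapt, TopHat against mm10 and edgeR; their versions, the annotation, the counter and the handling of multiply mapped reads were not given in any source used here. GENCODE M21 holds 7 pseudogenes named with a member's symbol followed by -ps. Among these is Atp5c1-ps, named for the called member Atp5c1. Copies under other names were not searched for, so the number of copies is not known. Each deposited CPM equals a whole number of reads over its library total (100% of values, within 0.01 of a read). Repeated rows (315) were removed. Library totals ran from 5845653 to 11046725 reads, where 3 reads equal 0.513 and 0.272 CPM.

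The test was limma 3.58.1 (eBayes with trend) on log2(CPM + 1) for 12435 genes kept by edgeR's filterByExpr on recovered reads; edgeR 4.0.16, which called 1820 genes on those reads, and DESeq2 1.42.0 were alternatives, and the pipeline was tested on simulated data. Fold changes on this scale understate the change of low genes. Levels per kb use the median length of basic protein-coding transcripts in GENCODE M21, matched for 93 of 93 members. The transcripts expressed here may differ in length, so orders and shares per kb depend on that choice. To deposited starts 1 was added. Named members were those called by limma or edgeR, per complex the 2 highest per kb and the 2 with the largest change, the isoform families, untested members, called list genes and Pml; others named were chosen after their values were seen. Members and lists were chosen with earlier results of these data known.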

Additional observations from a re-analysis of the deposited data

How the results depend on the processing

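Among the members, the higher and lower calls were 3 and 3; DESeq2 on recovered reads gave 1 higher, and the replicate number as a block gave 5 higher and 5 lower. Leaving out 1 library gave 1 to 4 higher and 2 to 6 lower. Atp5c1, Atp5g2 and Ndufv3 were called in all 13 alternatives run. In the 10 lists, 7 higher and 20 lower became 4 and 13 with no filter on low values, 4 higher with CPM divided by TMM factors, 1 and 8 with DESeq2, and 12 higher with the replicate block; leaving out 1 library gave 2 to 10 higher and 10 to 19 lower. Over all genes, 813 higher and 932 lower became 334 and 468 with DESeq2, and leaving out 1 library gave 512 to 872 higher and 632 to 980 lower. The cause of these shifts was not tested. The 6 called members kept their sign in all 13 alternatives, whereas some uncalled members with log2 fold changes near 0, such as Atp5b, Atp5g3, Cox6a1 and Cox6b2, changed sign when 1 library was left out, and every summed level moved by less than its spread. Same-numbered libraries deviated together only weakly over all tested genes, with correlations of 0.0755, 0.0603 and 0.0136 for replicates 1, 2 and 3. Because these were small, the main fit did not use the number as a pairing. Each library still correlated best with its own number, and in the members replicate 2 was most often the highest in both groups. The main fit ignores any such shared replicate effect, whereas the fit with the replicate number as a block takes it into account.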

Other observations

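The 21 tested genes of mitochondrial dynamics and cristae shape included 1 that rose, Phb, a prohibitin of the inner membrane, from 358 ± 13.2 to 382 ± 2.32 CPM (mean ± SD, n = 3; log2 fold change 0.09, limma adjusted p = 0.0442), and the list median was 0.00. The fusion and fission genes did not pass the test. Of 16 mitochondrial chaperone and protease genes 1 rose, Sod2, the superoxide dismutase of the matrix, from 197 ± 5.09 to 217 ± 7.13 CPM (log2 fold change 0.14, limma adjusted p = 0.00701), with a list median of 0.01. For all 16 the 95% interval of the fold change lay within 1.25-fold either way.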
